A study of Mus musculus with 36 samples.

Results

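The genes described here are 6 known from the contact between a growing mouse oocyte and the granulosa cells around it: Kit, Gja4, Gja1, Cdh1, Cdh2 and Jag1. They were picked by name from a deposited count table of 21968 genes, and all 6 were found in it. The table holds 36 libraries, each made from 1 oocyte at the germinal vesicle stage, that is, before the first meiotic division resumes. By their genotype label 18 oocytes from 4 mice (a to d) are Drp1_KO and 18 oocytes from 5 mice (1 to 5) are Drp1_WT. Drp1, encoded by Dnm1l, is the GTPase that divides mitochondria. The sources used here do not give the promoter of any recombinase, the strain, the age of the mice or any hormone treatment, so they do not say in which cells of the ovary Dnm1l was removed. Each oocyte was frozen alone in its own tube, and the tube number is part of the title.

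The oocyte and its granulosa cells talk in both directions across the zona pellucida. KIT is the receptor tyrosine kinase on the oocyte that answers KIT ligand, made by granulosa cells, and it acts through phosphoinositide 3-kinase. Connexin 37, the product of Gja4, forms the gap junction channels on the oocyte side, while connexin 43, the product of Gja1, joins granulosa cells to each other. E-cadherin (Cdh1) and N-cadherin (Cdh2) are calcium-dependent adhesion molecules, and Jagged1 (Jag1) is a membrane ligand that activates Notch receptors on neighbouring cells.

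Levels are given as CPM, that is, a gene's count divided by its library's own total count and scaled by a constant. A mouse's level is the sum of its oocytes' counts over the sum of their totals, since oocytes of a mouse are not independent. Totals ran from 3178509 to 7406895 counts, with 11350 to 14659 genes detected. A mouse gave 3 to 5 oocytes. The counts are per gene, so a loss of single exons of Dnm1l could not be read. As a limited check of the labels, the level of Dnm1l as a whole gene was read. It averaged 201 ± 23.8 CPM (SD, n = 4) under the Drp1_KO label and 244 ± 67.6 CPM (SD, n = 5) under the Drp1_WT label (log2 fold change -0.21, SE 0.19, edgeR adjusted p = 0.706). It went against the label in Drp1_WT tubes 11 to 15 (116 to 156 CPM, against 234 to 322 CPM in the other 13 oocytes of that label and 144 to 251 CPM in 17 of the Drp1_KO label). Tube 10 of mouse b held 274 CPM of Dnm1l, above the other 17 oocytes of the Drp1_KO label but within the range of all other libraries. In other genes it stands apart from all of them. It is part of mouse b in the means and fits unless a value is given as without it, and it is described apart below. Directions below follow the labels as given, between libraries labelled one way or the other. Nothing says whether mice were matched. The p-values of edgeR and DESeq2, on counts summed per mouse, measure the spread between these mice. Those of limma-voom, on single oocytes with mouse as a random effect, also draw on the spread between oocytes of a mouse.

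The 2 connexins mark the ends of the range of levels described here, so the 250 bases before their start sites are given first (RefSeq, GRCm38.p6, minus strand chr4:127314040-127314289 for Gja4 and plus strand chr10:56377050-56377299 for Gja1, written 5′ to 3′ along each gene). Capitals mark matches of 2 motifs searched on both strands, the GC box GGGCGG in Gja4 and the E-box CANNTG in Gja1.

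Gja4: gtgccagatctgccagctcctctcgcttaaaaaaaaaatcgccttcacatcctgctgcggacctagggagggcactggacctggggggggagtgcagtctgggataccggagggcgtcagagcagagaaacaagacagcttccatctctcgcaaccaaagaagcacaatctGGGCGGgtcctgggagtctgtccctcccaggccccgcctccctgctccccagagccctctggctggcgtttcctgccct

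Gja1: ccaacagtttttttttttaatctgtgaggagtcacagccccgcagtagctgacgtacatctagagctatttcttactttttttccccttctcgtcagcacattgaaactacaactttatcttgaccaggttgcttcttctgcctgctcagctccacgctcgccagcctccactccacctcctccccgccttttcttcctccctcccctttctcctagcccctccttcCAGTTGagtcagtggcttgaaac

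The Gja4 window has a GC content of 61.2%, with 1 GC box and 0 E-boxes. The Gja1 window has a GC content of 50%, with 1 E-box and 0 GC boxes. Of 32851 RefSeq windows of the same length, 32.7% hold a GC box and 66.2% hold an E-box. Another motif, TAATTA, the core of homeodomain sites, is in 4.84% of all windows and in 0 of these 2. A match is a description of the letters and not a bound site.

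On a scale of CPM per kilobase, which divides by the length of the longest protein-coding transcript and so lets genes be compared, Gja4 led by a wide margin. In mice labelled Drp1_WT it stood at 412 ± 79.7 CPM per kilobase (SD, n = 5), rank 172 of 21876 genes. Jag1 followed at 36.1 ± 7.06 (rank 2266) and Kit at 26.0 ± 5.55 (rank 2825). Cdh1 stood at 11.1 ± 1.35 (rank 4600), Cdh2 at 3.00 ± 0.727 (rank 7429) and Gja1 at 0.920 ± 0.716 CPM per kilobase (rank 9870). Without tube 10, mice labelled Drp1_KO gave the same order, with Gja4 at 314 ± 54.03, Jag1 at 38.8 ± 5.30, Kit at 23.9 ± 3.18, Cdh1 at 10.2 ± 0.621, Cdh2 at 3.65 ± 0.456 and Gja1 at 0.689 ± 0.621 CPM per kilobase (SD, n = 4). Neighbours in the order were separated in 9 of 9 mice, with no overlap of their ranges, except Jag1 and Kit. Jag1 lay above Kit in 8 of 9 mice, and the lowest Jag1 value (26.7) lay below the highest Kit value (33.2 CPM per kilobase).

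**Figure D1:**
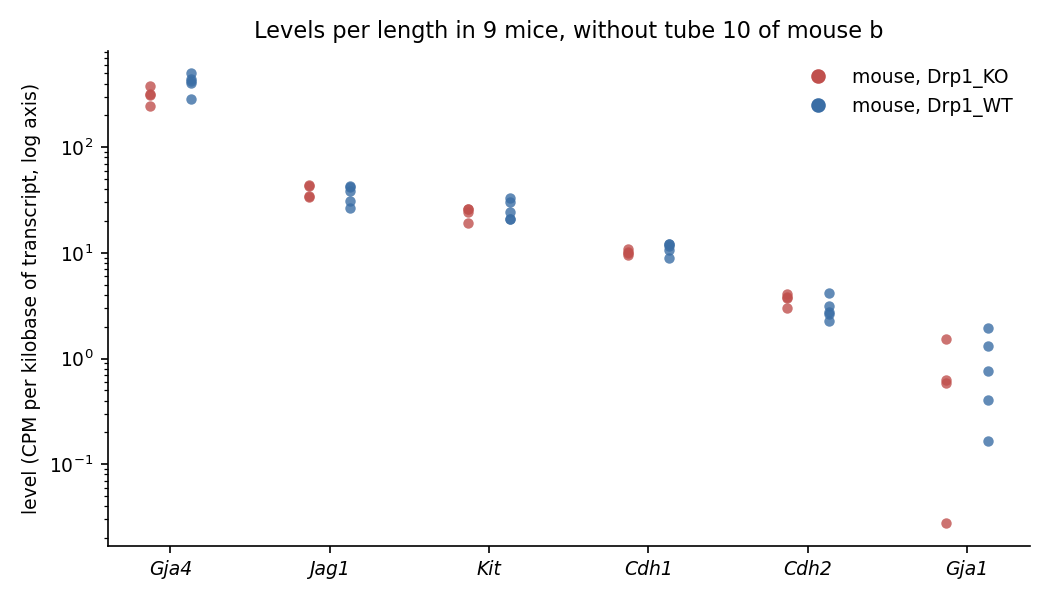
Level of each of the 6 genes in CPM per kilobase of transcript (log axis) for each mouse, without tube 10 of mouse b; a point is 1 mouse, red for the Drp1_KO label (4 mice) and blue for the Drp1_WT label (5 mice). Gja4 lies above all others in every mouse, from 245 to 501, and Gja1 lies lowest, from 0.0276 to 1.94; Jag1 and Kit overlap.

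None of the 6 genes passed an adjusted p of 0.05 between the labels (0 of 6, by edgeR's quasi-likelihood test over 12812 genes). Over all genes tested 0.0156% passed, which is 2 genes. At an unadjusted p under 0.05 there was 1 of the 6, Gja4, where 9.69% of all genes tested lay. DESeq2 and limma-voom on single oocytes also called 0 of the 6. At an unadjusted p under 0.05 DESeq2 had Gja4 alone and limma-voom had Cdh2 alone. For each of the 6 the mice of both labels overlapped in CPM, while 2.48% of all genes tested had mice that did not overlap, 1.86% with the Drp1_KO label lower.

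Kit (ENSMUSG00000005672, chromosome 5, 75574916 to 75656722, plus strand, GRCm38) is the receptor of the group. Mice a, b, c and d held 136, 117, 137 and 101 CPM, and mice 1 to 5 held 158, 109, 128, 174 and 111 CPM. The means were 123 ± 17.04 CPM (SD, n = 4) for the Drp1_KO label and 136 ± 29.1 CPM (SD, n = 5) for the Drp1_WT label. Mouse d was the lowest of the 9 and mouse 4 the highest, and the other mice of both labels overlapped. The log2 fold change was -0.06 (SE 0.14, 95% interval -0.37 to 0.24, edgeR adjusted p = 0.879). The Drp1_WT mean was raised by tubes 11 to 15, which held 118 to 214 CPM of Kit with a median of 190.2 CPM, against 69.4 to 171 CPM with a median of 118 CPM in the other 13 oocytes of that label. Without those 5 libraries, which include all oocytes of mouse 4, the log2 fold change of Kit was 0.12 (SE 0.16, edgeR adjusted p = 0.924). Kit thus has no direction between the labels that holds with and without them. Without tube 10 the Drp1_KO mean was 125 ± 16.7 CPM (SD, n = 4) and the log2 fold change -0.06 (SE 0.14, edgeR adjusted p = 0.905). Kitl, the ligand that granulosa cells supply, was low in these oocytes, at 7.18 ± 1.62 CPM in 4 mice labelled Drp1_KO against 6.17 ± 1.27 CPM in 5 labelled Drp1_WT (SD).

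Gja4 (ENSMUSG00000050234, chromosome 4, 127311421 to 127314039, minus strand) was the member with the smallest p. Mice a to d held 543, 442, 634 and 412 CPM, and mice 1 to 5 held 845, 711, 690.4, 749 and 479 CPM. Of the mice labelled Drp1_KO, b and d lay below every mouse labelled Drp1_WT, and a and c lay between mouse 5 and the other 4. The means were 508 ± 101 CPM (SD, n = 4) and 695 ± 134 CPM (SD, n = 5). The fitted fold change was 0.774 (95% interval 0.623 to 0.962), with a log2 fold change of -0.37 (SE 0.15). Its unadjusted p of 0.0245 ranked 609 among 12812 genes and its edgeR adjusted p was 0.499, so it did not pass.

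Mouse b's place below the other label rests on tube 10. Without that library mouse b stood at 528 CPM and the Drp1_KO mean became 529 ± 91.0 CPM (SD, n = 4). The log2 fold change was then -0.33 (SE 0.14, unadjusted p = 0.0323, edgeR adjusted p = 0.563). With limma-voom on single oocytes the value was -0.76 (SE 0.50, p = 0.134) with tube 10 and -0.31 (SE 0.12, p = 0.0124) without it, both unadjusted. The limma adjusted p was 0.599 with tube 10 and 0.367 without it. Tubes 27 to 30 hold mouse d and mouse 5 alone, and these were the lowest mice of their labels, at 412 and 479 CPM. Within tubes 1 to 15 the log2 fold change was -0.40 (SE 0.12, unadjusted p = 0.00585, adjusted p = 0.392 by edgeR, 3 against 4 mice). With the tube set as a term it was -0.34 (SE 0.11, unadjusted p = 0.00731, adjusted p = 0.276 by edgeR). Across the 35 libraries other than tube 10, Gja4 moved with the number of genes detected (Spearman's rho 0.62) more than with the total count (0.17); both come from the same libraries, and the part of detection in the difference between labels was not tested.

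Gja1 (ENSMUSG00000050953, chromosome 10, 56377330 to 56402513, plus strand), the connexin of granulosa cells, was low and uneven, and in some oocytes near the limit of detection. Apart from tube 10, the highest oocytes were tube 11 of mouse 3 (79 counts, 13.5 CPM) and tube 7 of mouse b (80 counts, 12.4 CPM). Mice a to d held 1.85, 7.37, 1.98 and 0.0879 CPM, and mice 1 to 5 held 4.21, 1.29, 6.16, 2.44 and 0.531 CPM. Mouse b was the highest of all and mouse d the lowest, both under the Drp1_KO label. The means were 2.82 ± 3.15 CPM (SD, n = 4) and 2.93 ± 2.28 CPM (SD, n = 5), and the log2 fold change was 0.04 with a 95% interval of -1.81 to 1.90 (SE 0.84, edgeR adjusted p = 0.989). An interval that wide covers large changes either way. Without tube 10 mouse b stood at 4.86 CPM and the log2 fold change turned to -0.38 (SE 0.71, edgeR adjusted p = 0.869). Counts of Gja1 were 0 in 3 of 18 oocytes labelled Drp1_KO (1 of mouse c and 2 of mouse d) and above 0 in all 18 labelled Drp1_WT, where the lowest was 0.156 CPM. A limit of 3 counts corresponds to 0.472 CPM in the oocyte of mouse c and to 0.533 and 0.552 CPM in those of mouse d, so a count of 0 does not separate these from the lowest oocytes with counts. These limits cover counting error only.

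Cdh1 (ENSMUSG00000000303, chromosome 8, 106603351 to 106670246, plus strand), the E-cadherin gene, varied least between mice. Mice a to d held 41.95, 37.1, 45.3 and 48.6 CPM, and mice 1 to 5 held 53.8, 51.4, 47.3, 53.3 and 39.4 CPM. Mouse b was the lowest through tube 10, and without it mouse b stood at 44.2 CPM and mouse 5 was the lowest of the 9. The means were 43.2 ± 4.87 CPM (SD, n = 4) and 49.03 ± 5.98 CPM (SD, n = 5), and the log2 fold change was -0.09 (SE 0.13, 95% interval -0.36 to 0.19, edgeR adjusted p = 0.811). Without tube 10 the first mean was 44.98 ± 2.75 CPM and the log2 fold change -0.05 (SE 0.12, edgeR adjusted p = 0.895).

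Cdh2 (ENSMUSG00000024304, chromosome 18, 16588877 to 16809246, minus strand), the N-cadherin gene, had the largest fold estimate upward. Mice a to d held 18.0, 18.3, 14.5 and 18.7 CPM, and mice 1 to 5 held 20.2, 15.3, 12.9, 10.99 and 13.3 CPM. Mice a, b and d lay above 4 of the 5 mice labelled Drp1_WT, while mouse 1 was above all others. The means were 17.4 ± 1.92 CPM (SD, n = 4) and 14.5 ± 3.52 CPM (SD, n = 5), with a log2 fold change of 0.35 (SE 0.18, 95% interval -0.04 to 0.75, edgeR adjusted p = 0.535). As for Kit, Drp1_WT tubes 11 to 15 set part of this value, here on the low side, at 5.58 to 15.6 CPM with a median of 9.63 CPM against 8.13 to 21.3 CPM with a median of 16.1 CPM in the other 13 oocytes. Without them the log2 fold change was 0.15 (SE 0.18, edgeR adjusted p = 0.920), and without tube 10 it was 0.36 (SE 0.18, edgeR adjusted p = 0.592), with a Drp1_KO mean of 17.7 ± 2.21 CPM (SD, 4 mice). By limma-voom on single oocytes with all libraries it was 0.42 (SE 0.17, unadjusted p = 0.0212, limma adjusted p = 0.443). By median, Kit was thus high and Cdh2 low in Drp1_WT tubes 11 to 15, whose Dnm1l goes against their label. Tube 14 of mouse 4 lay near the medians of the other 13 oocytes, with 118 CPM of Kit and 15.6 CPM of Cdh2. Gja4 in those 5 libraries, at 635 to 820 CPM with a median of 799 CPM, lay within the range of the other 13 (319 to 871 CPM) but above their median of 599 CPM. Without them its log2 fold change was -0.35 (SE 0.16, unadjusted p = 0.0536, edgeR adjusted p = 0.851).

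Jag1 (ENSMUSG00000027276, chromosome 2, 137081456 to 137116644, minus strand), the Notch ligand, gave no separation. Mice a to d held 194, 215, 242 and 189 CPM, and mice 1 to 5 held 149.6, 233, 241, 215 and 173 CPM. The lowest mice, 1 and 5, carry the Drp1_WT label, and the highest, c and 3, carry one label each. The means were 210.3 ± 24.0 CPM (SD, n = 4) and 202 ± 39.6 CPM (SD, n = 5), with a log2 fold change of 0.14 (SE 0.13, 95% interval -0.15 to 0.43, edgeR adjusted p = 0.708). Without tube 10 it was 0.17 (SE 0.13, edgeR adjusted p = 0.682).

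**Figure D2:**
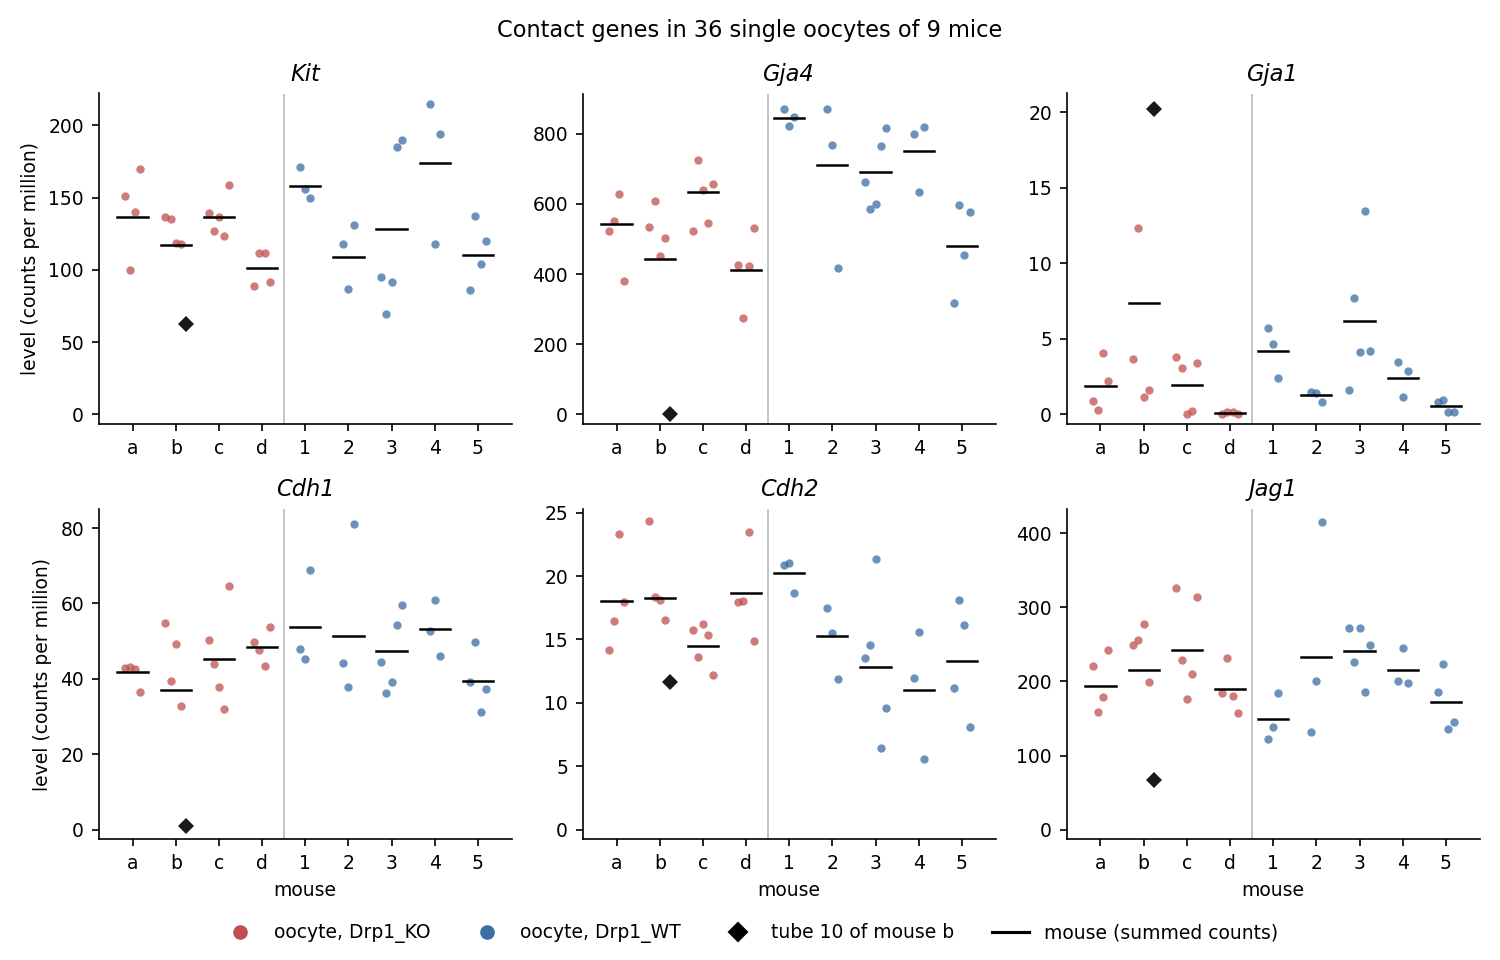
Level in CPM (vertical axes, from 0, each gene on its own scale) of Kit, Gja4, Gja1, Cdh1, Cdh2 and Jag1 in 36 oocytes by mouse (horizontal axes), red for the Drp1_KO label and blue for the Drp1_WT label, with a black bar for the summed counts of each mouse and a diamond for tube 10 of mouse b. The diamond lies below every other oocyte for Kit, Gja4, Cdh1 and Jag1 and above every other for Gja1, and the bars of both labels overlap for each gene.

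**Figure D3:**
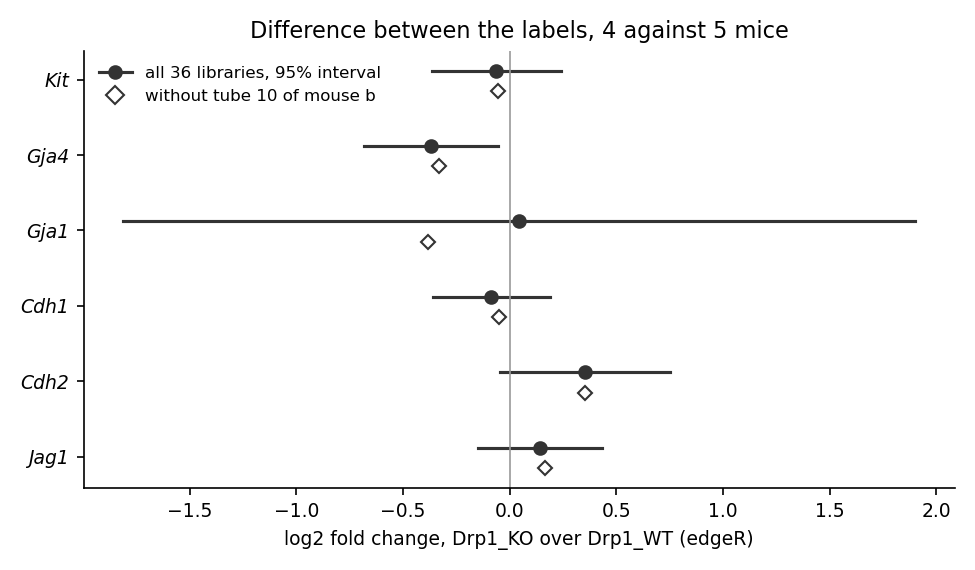
Log2 fold change of each gene between the Drp1_KO and Drp1_WT labels (horizontal axis), with all 36 libraries (filled point, line for the 95% interval, edgeR on 4 against 5 mice) and without tube 10 of mouse b (open diamond). Gja4 at -0.37 has an interval that ends at -0.06, while the intervals of the other 5 genes include 0, and Gja1 moves from 0.04 to -0.38.

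Oocytes of the same mouse varied least in Gja4 and most in Gja1. Over the 35 libraries other than tube 10, the median coefficient of variation (CV) within a mouse was 14.9% for Gja4, 19.02% for Jag1, 19.1% for Cdh2, 19.6% for Kit and 21.3% for Cdh1. For Gja1 it was 81.1%, at a median of 10 counts per oocyte. Counting error alone gives a CV of 25.1% at the mean count of the 35 libraries, and more in oocytes with fewer counts. The highest CV of Gja1, 115%, was in mouse d, whose oocytes held 0 or 1 counts. The CV between mice of a label was 17.2% and 19.3% for Gja4 and 13.3% and 21.4% for Kit (Drp1_KO without tube 10, and Drp1_WT). For Cdh1 it was 6.12% and 12.2%. Single oocytes spanned 274 to 871 CPM for Gja4, 69.4 to 214 CPM for Kit and 123 to 415 CPM for Jag1, whose highest oocyte, tube 6 of mouse 2, also held the most Cdh1 (81.1 CPM).

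Tube 10 of mouse b did not show the pattern of the other 35 libraries. It held 4 counts of Gja4 (0.817 CPM, against 274 to 871 CPM elsewhere) and 5 counts of Cdh1 (1.02 CPM, against 31.1 to 81.1 CPM). Jag1 at 67.03 CPM and Kit at 62.5 CPM were also below all others, whose lowest values were 123 and 69.4 CPM. The median of the other Drp1_KO oocytes was 650.3-fold higher for Gja4, 42.6-fold for Cdh1, 3.29-fold for Jag1 and 2.03-fold for Kit. Gja1 went the other way, with 99 counts (20.2 CPM), 17.8-fold above that median and above all 35 others. Cdh2, at 11.6 CPM, was within their range.

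Markers of other cell types were read in the same library. Of 12 oocyte genes 11 lay below every other library and 1, Dppa3, lay above at 10822 CPM. Their sum was 11945 CPM against 20800 to 36200 CPM. Of 11 immune genes 9 lay above every other library, with a sum of 782 CPM against 11.5 to 118 CPM, led by Lyz2 of macrophages and neutrophils at 439.97 CPM (named after its value was seen), while Cd14 was at 0 in every library. The sum of 21 granulosa and cumulus markers, 166 CPM, was at the upper end of the 92.0 to 167 CPM of the other libraries, with 3 markers above all of them and Ptx3 and Tnfaip6 at 0 in every library. Radixin (Rdx), which links actin to the membrane of microvilli, stood at 374 CPM against 3178 to 4919 CPM. The part of other cells in the low Gja4 and high Gja1 of this library was not tested.

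Markers that define granulosa and cumulus cells were low but not absent in the oocytes as a whole. Their summed level per mouse was 126 ± 5.76 CPM (SD, n = 4, mice 119 to 132) for the Drp1_KO label and 132 ± 14.03 CPM (SD, n = 5, mice 111 to 145) for the Drp1_WT label, and without tube 10 the first was 124 ± 3.96 CPM. Of the sum, Cyp19a1, the aromatase, took 64.97 ± 3.05 and 58.6 ± 4.66 CPM, and Nr5a2, an orphan nuclear receptor, took 32.8 and 32.7 CPM. Of 12 tested markers 4 had a log2 fold change above 0 and 8 below, with a median of -0.25. Cyp11a1, which makes pregnenolone, stood at 1.36 ± 0.598 against 4.79 ± 3.86 CPM (edgeR unadjusted p = 0.00836, adjusted p = 0.499). Hsd3b1 stood at 2.24 ± 0.804 against 5.99 ± 5.58 CPM, Fshr at 2.79 ± 0.745 against 4.58 ± 2.79 CPM and Inha at 4.58 ± 3.57 against 7.09 ± 4.02 CPM (edgeR unadjusted p = 0.0625, 0.133 and 0.364). The mice of both labels overlapped for each of these genes. For Hsd3b1, mice labelled Drp1_WT ran from 0.493 to 15.1 CPM and those labelled Drp1_KO from 1.32 to 3.27 CPM. For Cyp11a1 the ranges were 0.872 to 11.2 CPM and 0.615 to 2.07 CPM. Cyp11a1, Hsd3b1, Fshr and Inha, named after their values were seen, have estimates on the same side of 0 as Gja4. The 4 tested markers above 0 were Inhbb (log2 fold change 0.88), Kitl (0.31), Cyp19a1 (0.24) and Nr5a2 (0.10). The part of any of these markers in the difference of Gja4 was not tested. Foxl2, Amh and Wt1 stayed under 1 CPM in each of the 35 libraries. By label, the sum of the oocyte genes per mouse was 26761 ± 1848 CPM (SD, 4 mice) under Drp1_KO, 27422 ± 1723 CPM without tube 10, and 28349.8 ± 1517 CPM (SD, 5 mice) under Drp1_WT. That of the immune genes was 80.02 ± 60.2 CPM under Drp1_KO, 50.2 ± 7.11 CPM without tube 10, and 51.1 ± 11.6 CPM under Drp1_WT. That of 13 markers of stroma, endothelium and epithelium was 50.8 ± 10.7, 51.1 ± 10.7 and 59.01 ± 8.51 CPM in the same order. In each of these 2 sums 1 gene held a large part. C1qb took 43.7 and 46.6 CPM of the immune sum, and Pecam1 took 36.2 and 38.8 CPM of the other (Drp1_KO with tube 10, and Drp1_WT). Gja1 moved with the granulosa and cumulus marker sum over the 35 libraries (Spearman's rho 0.49, and 0.66 without Cyp19a1). The others moved with it less, at 0.13 for Kit, 0.18 for Gja4, 0.19 for Cdh1, 0.13 for Cdh2 and 0.15 for Jag1. Without Cyp19a1 their values were 0.35, 0.46, 0.48, 0.092 and 0.21 in the same order. Leaving out Cyp19a1, the largest part of the sum, was not among the planned settings. All points share the library, and the part of granulosa RNA in the level of Gja1 was not tested.

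Across the 35 libraries the 6 genes did not move together as 1 group. Of 15 pairs, the highest Spearman's rho was 0.54 (Gja4 and Gja1), then 0.48 (Kit and Gja1) and 0.45 (Kit and Gja4), and the lowest was -0.23 (Gja4 and Jag1). Centred on each mouse's mean, the highest was 0.54 for Cdh1 and Jag1, and Gja4 and Jag1 stood at -0.46. The 2 cadherins did not move together (-0.08, and -0.29 centred). These values describe libraries that share mice and depth.

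The genes whose levels most resembled each member were named by Spearman's rho over the same 35 libraries among 7342 genes of at least 10 CPM on average, Gja1 being too low for this. For Gja4 they were Ccdc92 (0.93), Surf4, a cargo receptor of the endoplasmic reticulum (0.92), and Dus3l, a tRNA dihydrouridine synthase (0.92), and 925 genes reached a rho of 0.7. For Kit they were Galnt11, which starts O-linked glycans (0.83), Grsf1, which binds RNA in mitochondria (0.81), and Rcc2 (0.81), with 303 genes at 0.7 or more. Cdh1 had 15 such genes, led by Tgds (0.76), Fbxo28 (0.75) and Fbxo43, a meiotic inhibitor of the anaphase-promoting complex (0.75). Jag1 had 2, and Cdh2 had 0, its closest being Abi3bp (0.63), Dhrs7b (0.63) and Cyb5d2 (0.52). Centred on each mouse, the counts at 0.7 or more were 661 for Gja4, 68 for Kit, 65 for Cdh1, 35 for Jag1 and 0 for Cdh2, so they fell for Gja4 and Kit and rose for Cdh1 and Jag1.

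For Jag1, the closest genes were Rrm2b, a subunit of ribonucleotide reductase (0.72), Slx4ip, which binds the SLX4 nuclease scaffold (0.72), and Foxn2 (0.69). Slx4ip is the neighbour of Jag1. It lies on the plus strand of chromosome 2, from 136891218 to 137071950, so that the 3′ ends of both genes face each other across 9505 bases. Its level ran from 22.2 to 86.4 CPM over the 35 libraries, and the oocyte with the most Jag1 (415 CPM) held the most Slx4ip (86.4 CPM). Centred on each mouse, rho fell to 0.43 and Slx4ip ranked 855 of 7342 genes, so part of the likeness lies between mice. In tube 10 the 2 genes parted, with Jag1 at 67.03 CPM and Slx4ip at 83.0 CPM, and with it rho was 0.59.

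**Figure D4:**
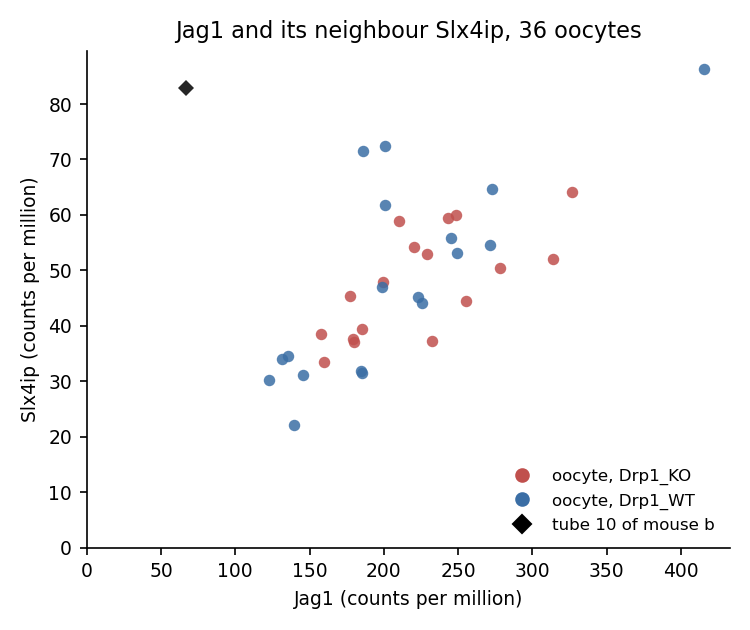
Level of Slx4ip against its neighbour Jag1 in CPM, 1 point per oocyte, red for the Drp1_KO label, blue for the Drp1_WT label and a black diamond for tube 10 of mouse b. In 35 libraries both rise together (Spearman's rho 0.72), with points of both labels mixed, and the diamond lies off that band at 67.03 CPM of Jag1 and 83.0 CPM of Slx4ip.

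The wider contact machinery was read from 5 lists of 119 different genes, of which 94 were tested. None passed an adjusted p of 0.05 (0 of 94 by edgeR, smallest adjusted p 0.471). At an unadjusted p under 0.05 there were 1 higher and 9 lower under the Drp1_KO label, 10.6% of those tested against 9.69% of all genes, and separately 4.89% of all genes were higher and 4.81% lower. Their median log2 fold change was -0.09, where that of all genes was -0.00. DESeq2, which tested 109 of them, and limma-voom also called 0, with 2 higher and 9 lower, and 4 higher and 8 lower, at an unadjusted p under 0.05. Without tube 10 edgeR gave 2 higher and 7 lower.

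In the list of KIT, its ligand and the genes downstream, 26 of 26 were tested and 1 was lower at an unadjusted p under 0.05, with a list median of -0.06. That was Pik3r2, a regulatory subunit of phosphoinositide 3-kinase, at 1.66 ± 0.424 CPM in 4 mice labelled Drp1_KO against 3.23 ± 1.06 CPM in 5 labelled Drp1_WT (SD; edgeR unadjusted p = 0.0107, adjusted p = 0.499). Rheb, the GTPase that activates mTORC1, stood at 203 ± 36.3 against 174 ± 18.3 CPM (unadjusted p = 0.0565) and Akt1, the kinase between them, at 25.3 ± 7.14 against 37.8 ± 15.7 CPM (unadjusted p = 0.0812). Pik3cd, a catalytic subunit, stood at 82.8 ± 9.33 against 108 ± 28.5 CPM.

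Among connexins, pannexins and the junction proteins ZO-1 and ZO-2, 13 of 25 were tested, 0 were higher and 2 were lower at an unadjusted p under 0.05, and the list median was -0.10. The 2 were Gja4 and Panx2, a pannexin channel, at 4.07 ± 0.893 CPM in 4 mice labelled Drp1_KO against 7.44 ± 1.73 CPM in 5 labelled Drp1_WT (SD; edgeR unadjusted p = 0.0047, adjusted p = 0.471). Gja5, connexin 40, stood at 0.391 ± 0.260 against 0.787 ± 0.220 CPM and Gjb6, connexin 30, at 0.910 ± 0.123 against 1.41 ± 0.198 CPM (unadjusted p = 0.0646 and 0.0669 by edgeR). For Gjb6 the mice did not overlap, as in 2.48% of all genes tested. Panx1, at 26.2 ± 3.92 against 26.9 ± 2.51 CPM, and Tjp1, which encodes ZO-1, at 32.6 ± 1.62 against 32.6 ± 5.96 CPM, were the most abundant after Gja4 per kilobase. Counts were 0 in every library for 6 of the 25.

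Of 25 cadherins, catenins and nectins 20 were tested, 0 were higher and 4 were lower at an unadjusted p under 0.05, with a list median of -0.11. Cdh4, R-cadherin, stood at 5.73 ± 0.919 CPM in 4 mice labelled Drp1_KO against 9.97 ± 3.01 CPM in 5 labelled Drp1_WT (SD; edgeR unadjusted p = 0.0055, adjusted p = 0.471). Ctnna1, the catenin that ties cadherins to actin, stood at 71.5 ± 5.88 against 97.2 ± 18.8 CPM (unadjusted p = 0.0197), and Nectin2, an adhesion molecule of the immunoglobulin family, at 1.67 ± 0.182 against 3.34 ± 1.71 CPM (unadjusted p = 0.0265). The fourth was Jup, plakoglobin, at 4.36 ± 2.06 against 7.29 ± 2.18 CPM (unadjusted p = 0.0497, named after its values were seen). Ctnnal1, the most abundant of the list per kilobase, stood at 129 ± 14.8 against 126 ± 8.51 CPM. The estimates of Cdh4 and Ctnna1 lay on the opposite side of 0 from that of Cdh2.

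In the Notch pathway 25 of 33 genes were tested, with 1 higher, 2 lower at an unadjusted p under 0.05 and a list median of -0.09. Jag2, the other Jagged ligand, stood at 11.2 ± 2.95 CPM in 4 mice labelled Drp1_KO against 15.9 ± 2.19 CPM in 5 labelled Drp1_WT (SD; edgeR unadjusted p = 0.0228, adjusted p = 0.499). Mfng, the manic fringe glycosyltransferase that modifies Notch receptors, stood at 20.7 ± 2.81 against 27.1 ± 1.89 CPM (unadjusted p = 0.0255). Every mouse labelled Drp1_KO (up to 22.7 CPM) lay below every mouse labelled Drp1_WT (from 24.8 CPM). Mice did not overlap in 2.48% of all genes tested. Tube 10 of mouse b held 1.23 CPM of Mfng, below every other library. Without that library the log2 fold change of Mfng went from -0.30 to -0.26 (edgeR unadjusted p = 0.0591). With all libraries the unadjusted p was 0.0132 by DESeq2 and 0.0982 by limma-voom. Adam10, the protease that makes the first activating cut in Notch, was the 1 higher gene, at 43.4 ± 5.14 against 36.7 ± 3.34 CPM (unadjusted p = 0.0271). Psenen, a subunit of the protease complex that makes the next cut, stood at 57.4 ± 9.20 against 55.7 ± 11.8 CPM.

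Genes of microvilli and other oocyte projections, 10 of 10 tested, had 0 at an unadjusted p under 0.05 and a median of -0.07. Rdx was by far the most abundant, at 3759.8 ± 407 CPM in 4 mice labelled Drp1_KO against 3799.9 ± 191 CPM in 5 labelled Drp1_WT (SD). Cd9, a tetraspanin of the egg surface, stood at 244 ± 14.5 against 272 ± 40.1 CPM and Vil1, villin, at 153 ± 34.9 against 186 ± 30.1 CPM. Myo10, the myosin that builds filopodia, stood at 228 ± 6.10 against 209.8 ± 18.8 CPM (edgeR unadjusted p = 0.0666). Its mice did not overlap, as in 2.48% of all genes tested. Ezr, ezrin, stood at 3.16 ± 1.22 against 4.62 ± 1.82 CPM. Each mean of the Drp1_KO label in these lists contains tube 10 of mouse b.

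**Figure D5:**
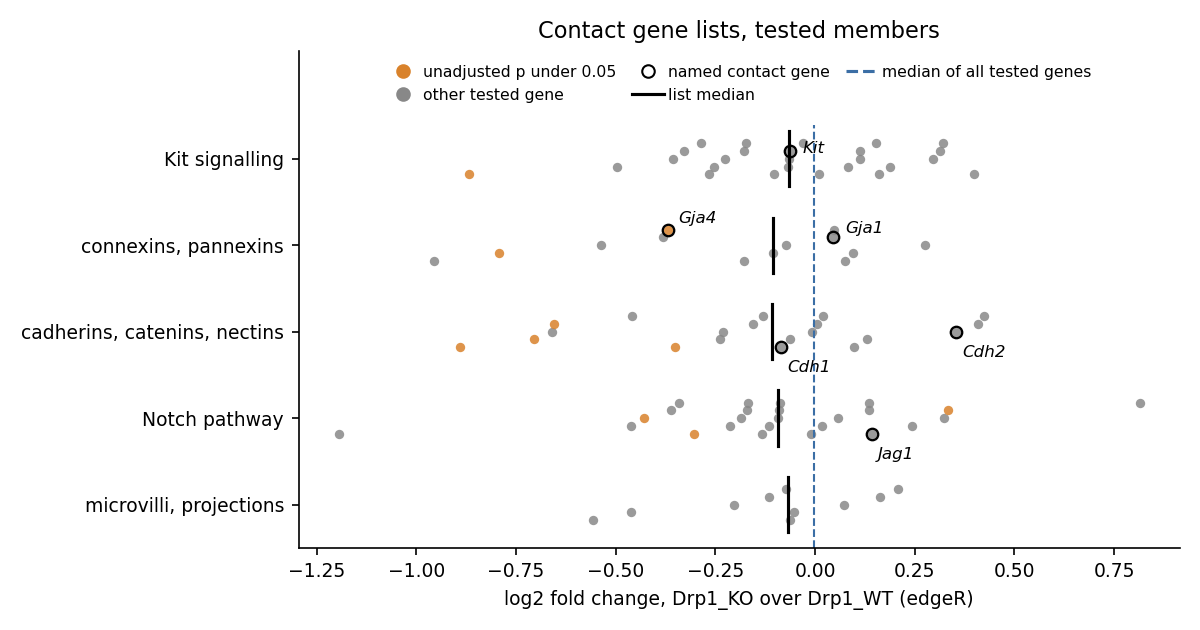
Log2 fold change between the Drp1_KO and Drp1_WT labels (horizontal axis, edgeR) of each tested gene in the 5 lists (rows; vertical position within a row is only for legibility), orange for an unadjusted p under 0.05, ringed for the 6 genes described here, with a black bar for the list median and a dashed line for the median of all genes tested. List medians run from -0.06 to -0.11, and 1 orange point lies above 0, Adam10, against 9 below.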

How the data were processed

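Single oocytes were lysed, cDNA was made with a SMARTer Ultra Low Input kit and libraries with Nextera XT, and reads of 100 bases were sequenced from one end, per the labels' protocols. Tools named in the submitters' processing notes are Subread 1.5.2, featureCounts, STAR and Picard, with the build GRCm38. The authors deposited whole-number counts per Ensembl gene, not normalized. For the strand setting and the release of the annotation, the sources used here give nothing. The kits keep no strand. The table has 0 columns of no listed sample and 0 rows that name no gene.

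IDs were matched to GENCODE M21 (21876 of 21968). No other gene of the table overlaps the 6. Counts were summed per mouse and tested with edgeR 4.0.16 (R 4.3.3; TMM factors, its low-count filter by genotype, robust quasi-likelihood fit, Benjamini-Hochberg over 12812 genes); the common biological CV was 0.214. TMM factors ran from 0.893 to 1.03 in mice labelled Drp1_KO and from 0.971 to 1.06 in those labelled Drp1_WT. They enter the fit, not the CPM or the overlap of mice. A difference in CPM and a log2 fold change can thus differ in sign, as for Gja1. Alternatives were DESeq2 1.42.0, limma-voom 3.58.1 with mouse as a random effect, other scaling and filters, and libraries, tube sets or mice left out; without tube 10, DESeq2, voom and the tube set, and a length of all annotated exons, were added after seeing the data. The fit was tested on simulated data. The 6 genes and the lists were chosen with earlier results of these data known. In each contact list the 3 smallest p and the 2 highest levels per kilobase, the 6 genes aside, were named, with Kitl and the 3 genes most like each gene of at least 10 CPM. One gene that this rule names is not reported here. Lists are described by counts and medians and were not tested as sets. Depth and 9 mice limit precision. No molecular identifiers are named, so PCR copies may count as separate reads. Promoter windows came from RefSeq, where 4 of the 6 genes had one; those of the 2 connexins are printed.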

Additional observations from a re-analysis of the deposited data

Results flagged for a closer look

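Of 48 groups of 4 or more oocytes of a mouse, or mice of a label, 4 held a value far from its group by a gap test at the 95% level, and chance picks about 1 in 20 groups. In mouse b, tube 10 was far below the other oocytes for Kit (62.5 CPM, others 118 to 136 CPM) and for Gja4 (0.817 CPM, others 452 to 608 CPM). In mouse a, Cdh1 of tube 4 stood at 36.5 CPM, with the others at 42.6 to 43.1 CPM. Counting error alone gives its 116 counts a 95% interval of 30.1 to 43.8 CPM, which holds the others. Among mice labelled Drp1_KO, Cdh2 of mouse c stood at 14.5 CPM, with the others at 18.0 to 18.7 CPM.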

How the results depend on the processing

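The 6 genes had 0 past the threshold under each of 23 alternatives. Gja4 ran from -0.76 to -0.29 (log2 fold change), with an unadjusted p under 0.05 in 17 of them and an adjusted p of 0.240 to 0.851. Cdh2 ran from 0.15 to 0.50, Cdh1 from -0.25 to -0.02 and Jag1 from 0.05 to 0.21, with no change of sign.

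Kit, at -0.06, turned to 0.12 without Drp1_WT tubes 11 to 15, to 0.13 without these, tube 10 and Drp1_WT tube 29, to 0.0073 by limma-voom without tube 10, and ran from -0.13 to 0.028 with 1 mouse left out. Gja1, at 0.04, turned to -0.043 with no scaling, -0.87 by limma-voom, -0.38 without tube 10 (-0.38 by DESeq2, -1.03 by limma-voom, -0.45 with the tube set as a term), -0.27 without the 3 sets of tubes and -0.061 with the tube set as a term, and ran from -1.11 to 0.54 with 1 mouse left out; the cause was not tested. It had no value under the filter of 10 CPM. Over all genes 2 passed by edgeR, 37 by DESeq2 (38 without tube 10), 9 by limma-voom (8 without tube 10), 4 within tubes 1 to 15, and 1 to 3 with 1 mouse left out.

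With all annotated exons as length, Kit stood at 14.7 and Cdh2 at 1.97 CPM per kilobase (25.1 and 3.29 with the longest transcript), and the order of the 6 held. No paired analysis was possible because mice carry letters under one label and numbers under the other, which name no pairs. At a median of 10 counts per oocyte, depth limits Gja1.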
